A study of Mus musculus with 40 samples.

Results

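The main effect of memantine was measured across the cortical transcriptome of all 40 mice of the series, by setting the 20 memantine libraries against the 20 saline libraries with head impact as a covariate. All mice were 12-week-old male C57BL/6. They received memantine or saline i.p. daily, 1 h before high-frequency head impact (HF-HI) or a sham procedure, and the cortex was taken 24 h after the last session. There were 10 libraries each of saline sham, memantine sham, saline HF-HI and memantine HF-HI by the sample labels, which were followed here, whereas the series description speaks of 4 per group. Every mouse, controls included, was injected before each session, so the contrast is between the drug and its vehicle. The question was which transcripts memantine itself moved, whether or not the mouse had been hit.

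Memantine is a low-affinity, uncompetitive blocker of the NMDA receptor, the glutamate-gated channel whose calcium entry couples synaptic activity to gene expression in cortical neurons. Activity-regulated genes, among them transcription factors such as Egr1 and secreted synaptic proteins such as Nptx2, are well-known readouts of that coupling. Cortical cells also carry a circadian clock, in which the activators CLOCK and BMAL1 (encoded by Arntl) drive the Per and Cry repressors, the Rev-erb genes Nr1d1 and Nr1d2, and the output factors Dbp, Tef and Hlf of the PAR bZIP family. The REV-ERB proteins in turn repress Arntl, so Arntl RNA peaks in antiphase to Dbp.

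The table held 6831 transcripts, all abundant, with a mean normalised read count of at least 549.2, and 5875 gene-level sums, in which the counts of all listed transcripts of a gene were added. Summed reads ran from 13322404 to 17529644 per library and were alike under both drugs (permutation of the drug within sham and within HF-HI, two-sided, p = 0.67). Of the markers of neighbouring tissue, 16 of 23 cortical layer genes and 18 of 24 striatal genes were listed, none of 8 blood genes was, and the summed level of each of 10 marker lists had a permutation p of 0.249 or above. Striatal genes summed to 45461 to 75954 normalised counts across all groups. Between memantine and saline their summed level differed by 0.131 on the log2 scale within HF-HI and by -0.006 within sham. The choroid plexus gene Ttr, a thyroxine carrier, ran from 74.5 to 22031 counts among libraries of all 4 groups.

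Memantine moved few genes, and by small amounts. At an unadjusted p under 0.05, 269 transcripts were higher and 280 lower under memantine, together 8.04% of those tested, or 3.94% higher and 4.1% lower. Among gene-level sums, 256 were higher and 269 lower, which was 8.94% of those tested, or 4.36% higher and 4.58% lower. The median change of the gene-level sums that passed was 0.07 on the log2 scale, without sign, and 22 of the 525 changed by more than 0.25. After Benjamini-Hochberg adjustment at 0.1, 1 transcript passed, 0.0146% of the table, and 3 gene-level sums, 0.0511%. The transcript was that of Dbp, and the sums were Dbp, Tef and the non-coding RNA 4933431E20Rik, all higher under memantine. Below, a change is the log2 difference of gene-level sums (count + 1) ± SE unless a transcript is named, a gene is said to pass, rise or fall at an unadjusted p under 0.05, and adjusted values are from limma across all features. In bulk cortex, fewer cells of a type and less RNA per cell cannot be told apart.

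Clock output genes carried the clearest change. Dbp, encoding the D-box binding PAR bZIP factor (chromosome 7, 45705100 to 45710203, mm10), had normalised counts of 868 to 1132 (median 1011) in saline sham and 1176 to 1597 (median 1391) in memantine sham. In the impacted mice Dbp ran from 818 to 1298 (median 1161) under saline and from 1142 to 1414 (median 1325) under memantine. The sham groups did not overlap, the HF-HI groups did, and all 20 memantine libraries lay above the mean of their saline counterpart. Pooled over impact, Dbp was 25.9% higher under memantine, a log2 change of 0.33 ± 0.05 (SE, adjusted p = 0.000465, limma). Its permutation p was 1e-05, the smallest that the permutations can give. Dbp passed at an adjusted p under 0.1 in each of the 40 fits that left out 1 library.

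**Figure D1:**
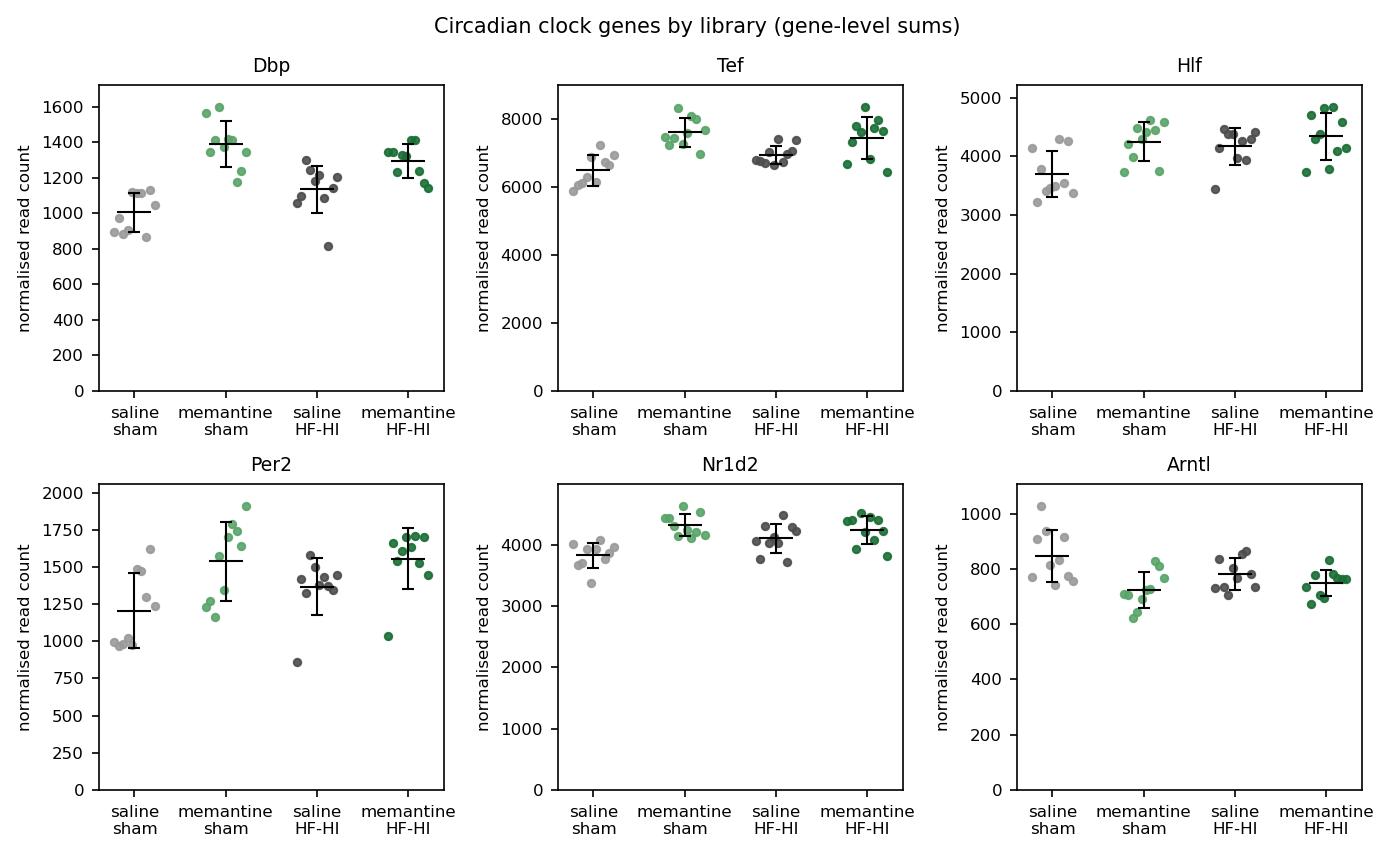
Normalised read counts (y axis, from 0) of 6 circadian clock genes in each of the 40 libraries, by group (x axis); points are libraries, bars are the mean ± SD of 10 libraries. Dbp in memantine sham (1176 to 1597) sits wholly above saline sham (868 to 1132), and Arntl moves the other way.

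Tef, encoding the thyrotroph embryonic factor of the same family (chromosome 15, 81802673 to 81826863), rose in the sum of its 2 listed transcripts. Its sum ran from 5887 to 7235 (median 6475) in saline sham and from 6985 to 8326 (median 7525) in memantine sham. In HF-HI mice the sum was 6653 to 7420 (median 6880) under saline and 6450 to 8354 (median 7638) under memantine, and the groups overlapped at both impact levels. The pooled change was 0.16 ± 0.03 on the log2 scale, or 11.9% (adjusted p = 0.0114, limma), with 17 of 20 memantine libraries above the saline mean. Neither Tef transcript passed alone (NM_153484, p = 0.0758; NM_017376, p = 0.864). The split between both was uneven from library to library, and NM_017376 ran from 982 to 4936 counts.

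Hlf, the remaining PAR bZIP factor of the clock, was 9.4% higher, a log2 change of 0.13 ± 0.04 (p = 0.00318, adjusted p = 0.403), with a median of 3518 in saline sham against 4353 in memantine sham and of 4284 against 4347 in the HF-HI mice. Thus 3 of the 4 listed clock output genes were higher at an unadjusted p under 0.05, against 4.36% of all gene-level sums, and the median change of the list was 0.15 against 0 for all symbols. This list, like the others below, was chosen with earlier results of these data known, so its share is a description and not a test. The exception was Pdp1, at -0.04 ± 0.04, which in the mouse encodes a pyruvate dehydrogenase phosphatase and not a PAR bZIP factor.

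Core clock genes moved in both directions. Of 16 listed, 4 were higher, 2 were lower and 10 did not pass, so that 37.5% passed against 8.94% of all gene-level sums. Within sham 5 of them passed, against 464 of 5875 gene-level sums, and within HF-HI none did, against 216 of 5875. Nr1d2, encoding REV-ERB beta, had 3376 to 4068 counts (median 3898) in saline sham and 4109 to 4626 (median 4275) in memantine sham, without overlap. In the HF-HI mice Nr1d2 had 3721 to 4487 (median 4087) under saline and 3815 to 4511 (median 4303) under memantine, and the ranges largely coincided. Its pooled change was 0.11 ± 0.03 (p = 0.000104, adjusted p = 0.153).

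Per2, a transcriptional repressor of the loop, was 20.8% higher (log2 change 0.27 ± 0.08, p = 0.00113, adjusted p = 0.35), from a median of 1129 to 1606 in sham and of 1400 to 1620 in HF-HI. In sham its level followed the replicate number under both drugs, a split seen after the values were. The saline sham libraries numbered 1 to 5 had 970.1 to 1024 counts and those numbered 6 to 10 had 1235 to 1624, and the memantine sham libraries had 1164 to 1571 and 1642 to 1908. Memantine was higher in both sets, from a median of 984.5 to 1272 and of 1470 to 1741. The labels do not say what the numbers stand for. Per3 and Cry2, further repressors, rose by 0.14 ± 0.07 and 0.09 ± 0.03 (p = 0.0446 and 0.0157). Per1 and Nr1d1, which encodes REV-ERB alpha, did not pass, at 0.14 ± 0.11 and 0.09 ± 0.07 (p = 0.202 and 0.203).

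Arntl, encoding the activator BMAL1, fell. It had 744 to 1027 counts (median 823) in saline sham, 622 to 829 (median 717) in memantine sham, 705 to 867 (median 774) in saline HF-HI and 673 to 833 (median 763) in memantine HF-HI. Its groups overlapped at both impact levels, but 18 of 20 memantine libraries lay below the saline mean. The pooled change was -0.14 ± 0.04 (p = 0.00106, adjusted p = 0.35). By replicate number, the Arntl fall was uneven. Its sham median went from 909.5 to 691.3 in libraries 1 to 5, but from 776.3 to 766.1 in libraries 6 to 10. In HF-HI the medians went from 735.4 to 706.7 and from 780.6 to 768.1. Clock, the partner of BMAL1, fell by 0.07 on the log2 scale (p = 0.0467), and Npas2, which can stand in for Clock, was at -0.05 ± 0.04 (p = 0.186). Genes of the positive limb were therefore lower, and genes of the negative limb and the output higher, where they passed. The labels used here state no time of day, so what part sampling time had in these values was not tested.

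RefSeq promoters (build GRCm38.p6, 250 bases before to 50 after each annotated start) were read for 11 of 12 clock genes, to show which carried the letters that clock factors bind. The E-box CACGTG, bound by CLOCK and BMAL1, was searched with the D-box TTATGTAA, bound by DBP, TEF and HLF, the ROR element TAGGTCA, bound by REV-ERB proteins, and the cyclic AMP response element TGACGTCA, on both strands, and no match of one overlapped another. Among 32851 promoters of mouse genes, 7.15% held this E-box, 0.938% the D-box, 2.61% the ROR element and 1.79% the cyclic AMP response element. Both Tef promoters and 1 Per1 promoter held the E-box, the Per3 promoter held 2 D-boxes, 1 Arntl promoter held the ROR element, and the Hlf promoter held the cyclic AMP response element. The promoters of Dbp, Nr1d1, Nr1d2, Cry2, Clock and Npas2 held none of these letters in this window. The promoters of Tef and Per3, which rose under memantine, are shown 5′ to 3′ with the motif in capitals, E-box for Tef (chr15:81802423-81802722 and chr15:81811164-81811463, plus strand) and D-box for Per3 (chr4:151044616-151044915, minus strand).
Tef, upstream start: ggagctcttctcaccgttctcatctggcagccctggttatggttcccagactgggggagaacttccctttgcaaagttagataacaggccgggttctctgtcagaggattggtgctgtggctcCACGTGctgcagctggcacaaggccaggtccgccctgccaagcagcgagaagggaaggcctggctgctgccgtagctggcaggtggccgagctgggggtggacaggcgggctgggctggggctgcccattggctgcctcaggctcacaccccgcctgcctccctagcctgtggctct
Tef, downstream start: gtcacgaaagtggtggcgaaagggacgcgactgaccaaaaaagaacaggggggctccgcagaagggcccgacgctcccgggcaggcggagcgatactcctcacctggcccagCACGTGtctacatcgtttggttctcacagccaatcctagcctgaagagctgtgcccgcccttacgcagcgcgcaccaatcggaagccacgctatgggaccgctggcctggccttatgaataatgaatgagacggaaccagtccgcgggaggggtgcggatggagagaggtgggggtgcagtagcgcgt
Per3: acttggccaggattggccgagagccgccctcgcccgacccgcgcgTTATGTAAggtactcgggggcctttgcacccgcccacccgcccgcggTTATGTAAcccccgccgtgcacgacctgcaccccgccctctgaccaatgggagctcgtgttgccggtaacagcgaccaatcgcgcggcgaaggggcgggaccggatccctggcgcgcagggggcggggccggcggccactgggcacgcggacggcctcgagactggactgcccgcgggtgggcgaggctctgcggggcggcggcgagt

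The clock response was larger in sham than in HF-HI mice for 13 of the 16 core genes and 3 of the 4 output genes, in absolute log2 change, as it was for 3300 of 5871 symbols. Within sham, Dbp rose by 0.47 ± 0.07, Tef by 0.23 ± 0.04 and Nr1d2 by 0.18 ± 0.03 (adjusted p = 9.52e-05, 0.00483 and 0.0159 in the sham contrast). Within HF-HI the same genes were at 0.20 ± 0.07, 0.10 ± 0.04 and 0.05 ± 0.03 (unadjusted p = 0.0045, 0.0242 and 0.168). The saline groups themselves differed in level, with a mean Dbp count of 1006 ± 110 in sham and 1134 ± 134 in HF-HI (SD), while memantine sham and memantine HF-HI stood at 1388 ± 129 and 1295 ± 94.5. The difference between the drug effects was tested as an interaction. Its unadjusted p was 0.00617 for Dbp, 0.0246 for Tef, 0.0117 for Nr1d2, 0.0348 for Arntl, 0.0252 for Per3 and 0.0418 for Cry2. These were 4 of the 16 core and 2 of the 4 output genes, and the others did not pass, among them Per2 (interaction p = 0.289). No interaction passed after adjustment across gene-level sums, where the smallest adjusted p was 0.999, and 211 of 5875 had an unadjusted p under 0.05.

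**Figure D2:**
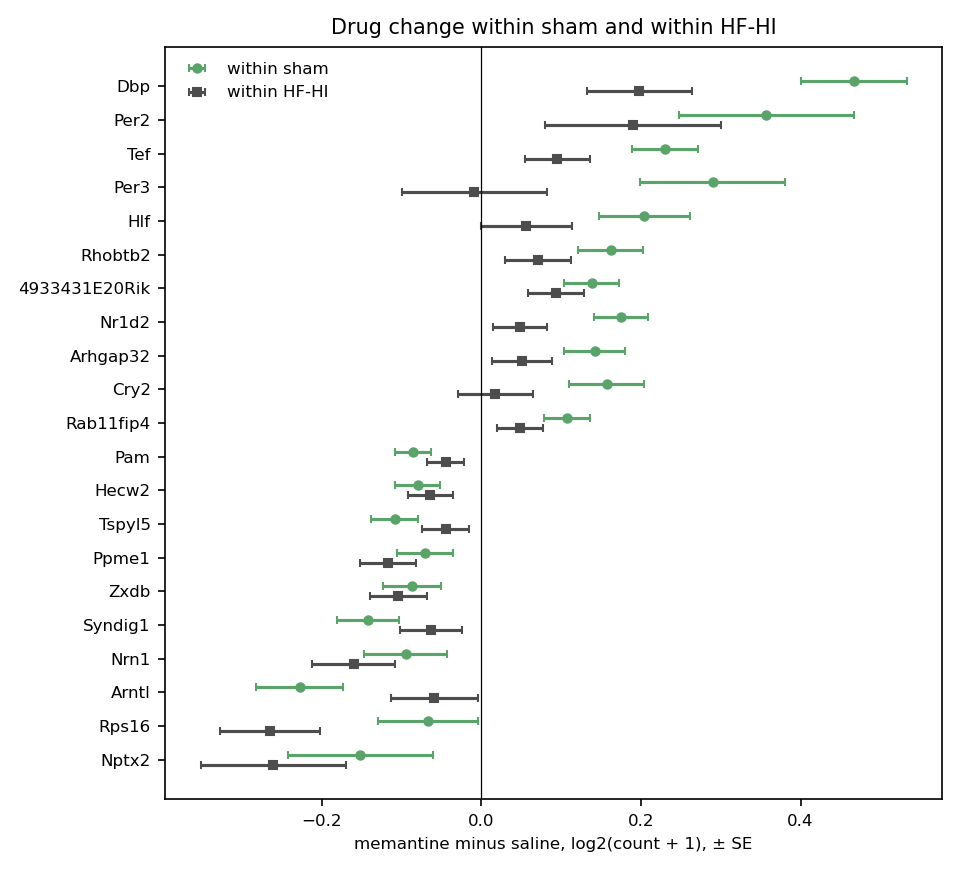
Log2 difference between memantine and saline (x axis, log2 of count + 1, ± SE) within sham (circles) and within HF-HI (squares) for the named gene-level sums and 6 further clock and activity genes (y axis). Dbp stood at 0.47 within sham and 0.20 within HF-HI, and Rps16 at -0.07 and -0.27.

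Of the whole table, the drug contrast gave 464 gene-level sums at an unadjusted p under 0.05 within sham and 216 within HF-HI, with 3 and 0 at an adjusted p under 0.1. For transcripts the counts were 513 and 267, with 2 and 0 after adjustment. At the unadjusted threshold about 294 sums and 342 transcripts would pass by chance alone, more than passed within HF-HI.

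Outside the clock, 4933431E20Rik, a non-coding RNA (chromosome 3, 107888850 to 107896213), was the third gene-level sum to pass. It had 1402 to 1759 counts (median 1608) in saline sham, 1591 to 1986 (median 1745) in memantine sham, 1481 to 1736 (median 1638) in saline HF-HI and 1636 to 1783 (median 1732) in memantine HF-HI. The groups overlapped, and 19 of 20 memantine libraries lay above the saline mean, a rise of 8.3% (log2 change 0.12 ± 0.03, adjusted p = 0.0794). It kept an adjusted p under 0.1 in 18 of the 40 fits without 1 library, and had an adjusted p of 0.184 with the length and GC indices described below as covariates.

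The next rising genes outside the clock had changes of 4.2% to 8.4% and adjusted p-values of 0.319 or above. Rhobtb2, an adaptor of a cullin-3 ubiquitin ligase, had medians of 2267 and 2421 in saline and memantine sham and of 2351 and 2484 in HF-HI (log2 change 0.12 ± 0.03, p = 0.000362). Rab11fip4, an effector of the recycling endosome GTPase RAB11, rose by 0.08 ± 0.02 (p = 0.00061). Arhgap32, a GTPase-activating protein of the postsynaptic density, rose by 0.10 ± 0.03 in the sum of its transcripts (p = 0.00105). Ulk2, an autophagy-initiating kinase, and Nhsl2, of the Nance-Horan syndrome protein family, were higher by 4.2% and 7.0% (unadjusted p = 0.0015 and 0.00151). Each of these 5 had 17 or 18 of 20 memantine libraries above the saline mean.

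Among the 8 falling sums and 10 falling transcripts with the smallest p none passed adjustment, and their changes ran from -10.9% to -4.5%. Pam, the enzyme that amidates neuropeptides, had 4320 to 4793 counts (median 4633) in saline sham, 4126 to 4777 (median 4294) in memantine sham, 4289 to 4775 (median 4566) in saline HF-HI and 4195 to 4622 (median 4389) in memantine HF-HI. Its pooled change was -0.07 ± 0.02 (p = 0.000256, adjusted p = 0.3). Ppme1, which removes the methyl group from the catalytic subunit of protein phosphatase 2A, was below the saline mean in 20 of 20 memantine libraries although its groups overlapped. It fell from medians of 2346 to 2241 in sham and of 2369 to 2200 in HF-HI, a pooled change of -0.09 ± 0.03 (p = 0.000482, adjusted p = 0.319).

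Syndig1, a postsynaptic membrane protein that associates with AMPA receptors, fell by 0.10 on the log2 scale (p = 0.000753). Hecw2, a HECT-type ubiquitin ligase, and Rnf139, a ubiquitin ligase of the endoplasmic reticulum, were lower by 4.9% and 5.6% (transcript p = 0.000899 and 0.00111). Tspyl5, of the nucleosome assembly protein family, and the zinc finger gene Zxdb fell by 0.08 and 0.10 (p = 0.000622 and 0.000485). The entry NR_002875_chr11 has no symbol in the annotation and is 1 of several copies of a ubiquitin pseudogene. It was at -0.12 ± 0.03 (p = 0.000489), and its reads cannot be told from those of its copies and of Ubb.

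Rps16, a protein of the small ribosomal subunit, had the largest fall of these, -0.17 ± 0.05 (p = 0.00097, adjusted p = 0.35). It went from medians of 922 to 851 in sham and of 921 to 770 in HF-HI, where memantine libraries reached down to 570. The interaction for Rps16 had an unadjusted p of 0.0316 and an adjusted p of 0.999.

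Genes of the drug's own target did not pass. Of the 7 NMDA receptor subunit genes 5 were listed, and their changes ran from -0.03 to 0.06. Grin1, the obligatory subunit, had medians of 5619, 5886, 5939 and 5849 normalised counts in saline sham, memantine sham, saline HF-HI and memantine HF-HI, at 0.04 ± 0.03 (p = 0.269). Grin2b, which lengthens the channel's decay, had medians of 10416, 10566, 10122 and 10453 in the same order, at 0.01 ± 0.02 (p = 0.618). Grin2a, the subunit of mature fast-decaying receptors, was at -0.01 ± 0.03 (p = 0.844). Grin2c was at 0.06 ± 0.05 and Grin3a at -0.03 ± 0.10 (p = 0.232 and 0.746). The ranges of memantine and saline overlapped for all 5 at both impact levels.

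Other glutamate receptor genes were mixed. Among 7 kainate and metabotropic receptor genes, 2 were higher (28.6%, against 4.36% of all gene-level sums) and none lower. Grik5, a high-affinity kainate receptor subunit, had 1716 to 2710 counts (median 2080) in saline sham, 1899 to 3295 (median 2318) in memantine sham, 1732 to 2429 (median 1953) in saline HF-HI and 1790 to 2717 (median 2184) in memantine HF-HI. The groups overlapped, and 18 of 20 memantine libraries lay above the saline mean, a change of 0.18 ± 0.06 (p = 0.00692, adjusted p = 0.423). Grik3, a low-affinity kainate subunit, rose by 0.10 ± 0.03 (p = 0.00247).

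Among 12 AMPA receptor genes and partners, 2 rose and 1 fell, or 25.0% against 8.94% of all gene-level sums. Cnih2 and Gsg1l, auxiliary subunits, rose by 0.12 ± 0.05 and 0.14 ± 0.06 (p = 0.0119 and 0.0302). Gria2, the subunit that makes AMPA receptors impermeable to calcium, fell by 0.17 on the log2 scale in the sum of its 3 listed transcripts (p = 0.00638, adjusted p = 0.422). The sum was not spread evenly. It stayed between 21006 and 22979 in all saline sham libraries, whereas 3 of 10 memantine sham, 1 of 10 saline HF-HI and 4 of 10 memantine HF-HI libraries lay under 17000, a limit set after the values were seen, and the medians were 20939, 22692 and 20948. Both transcripts NM_001083806 and NM_013540 were lower (p = 0.00872 and 0.0185), while NM_001039195 was at 0.15 ± 0.08 in log2 counts (p = 0.0534).

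Postsynaptic density genes included 2 of 40 that rose, 5.0% against 4.36% of all gene-level sums and so near that share. They were Shank3, a scaffold protein, at 0.12 ± 0.05 (p = 0.0307), and Iqsec1, an exchange factor for ARF6, at 0.08 ± 0.03 (p = 0.0209). Genes of glutamate uptake and release (14 listed) and of GABA synthesis, transport and receptors (21 listed) held none that passed. Of 51 synaptic vesicle genes 13.7% passed, against 8.94% of all sums. Of these 4 rose, among them Rph3a, Syn1 and Napa, and 3 fell (Ap2b1, Amph and Ppfia2), with a median change of 0.02 for the list.

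**Figure D3:**
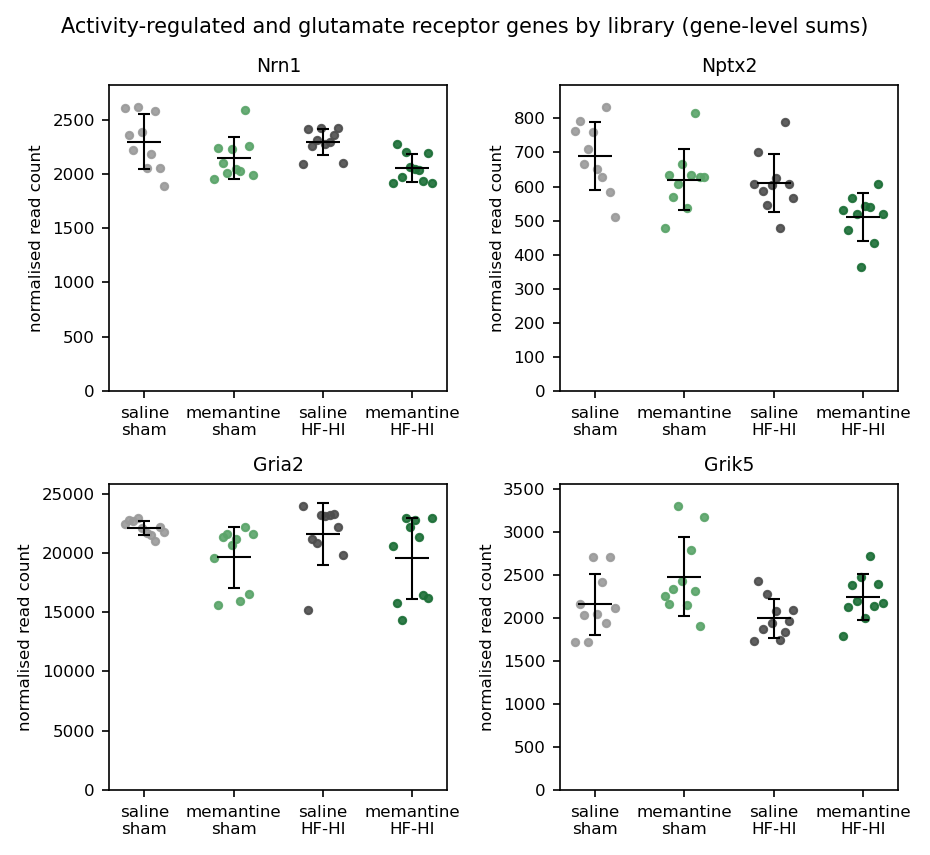
Normalised read counts (y axis, from 0) of 4 genes in each of the 40 libraries by group (x axis); points are libraries, bars are the mean ± SD of 10 libraries. Nrn1 and Nptx2 are lower under memantine with overlapping groups, and Gria2 has a low cluster under 17000 counts outside saline sham.

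Activity-regulated genes leaned downwards. Of 39 genes on the immediate early and activity-regulated list, 16 were in the table, and all 16 had a change below 0. Their median was -0.10, and 4 passed, all lower, against 4.58% lower of all gene-level sums. The 4 encode secreted or membrane-anchored synaptic proteins and peptide precursors or their protease, not transcription factors. Nrn1, a small GPI-anchored neuritin that promotes neurite growth, had 1892 to 2614 counts (median 2292) in saline sham, 1950 to 2591 (median 2071) in memantine sham, 2088 to 2425 (median 2304) in saline HF-HI and 1914 to 2273 (median 2041) in memantine HF-HI. It lay below the saline mean in 19 of 20 memantine libraries, a change of -0.13 ± 0.04 (p = 0.00113, adjusted p = 0.35). By replicate number, a split made after the values were seen, the Nrn1 fall was uneven in sham. The sham median of Nrn1 went from 2389 to 2098 in libraries 1 to 5, but from 2059 to 2045 in libraries 6 to 10. In HF-HI the medians went from 2312 to 2059 and from 2297 to 2035.

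Nptx2, a secreted pentraxin that clusters AMPA receptors, fell by 0.21 on the log2 scale (p = 0.00256, adjusted p = 0.403). Its medians were 688 and 629 in saline and memantine sham and 605 and 526 in saline and memantine HF-HI, and its groups overlapped. By replicate number, the sham median of Nptx2 went from 761 to 609 in libraries 1 to 5. In libraries 6 to 10 it was 629 under both drugs. The HF-HI medians went from 604 to 520 and from 607 to 540. Pcsk1, a prohormone convertase, and Scg2, a granin of dense-core vesicles, fell by 0.15 and 0.14 (p = 0.0228 and 0.0363). The transcription factors of the list did not pass, and differed widely between libraries. Egr1 was at -0.06 ± 0.13, Junb at 0.00 ± 0.14 and Nr4a1 at -0.11 ± 0.18, and the cytoskeletal effector Arc was at -0.04 ± 0.18. Within sham, 7 of the 16 were above 0, and within HF-HI none was (median -0.05 and -0.16). Striatal marker genes differed between the impact levels too, with 5 of 18 above 0 within sham and 16 of 18 within HF-HI. With the mean of the striatal markers as a covariate, 14 of the 16 activity-regulated genes were below 0, with a median of -0.06. At the unadjusted threshold 4 were lower, against 285 of 5875 gene-level sums.

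**Figure D4:**
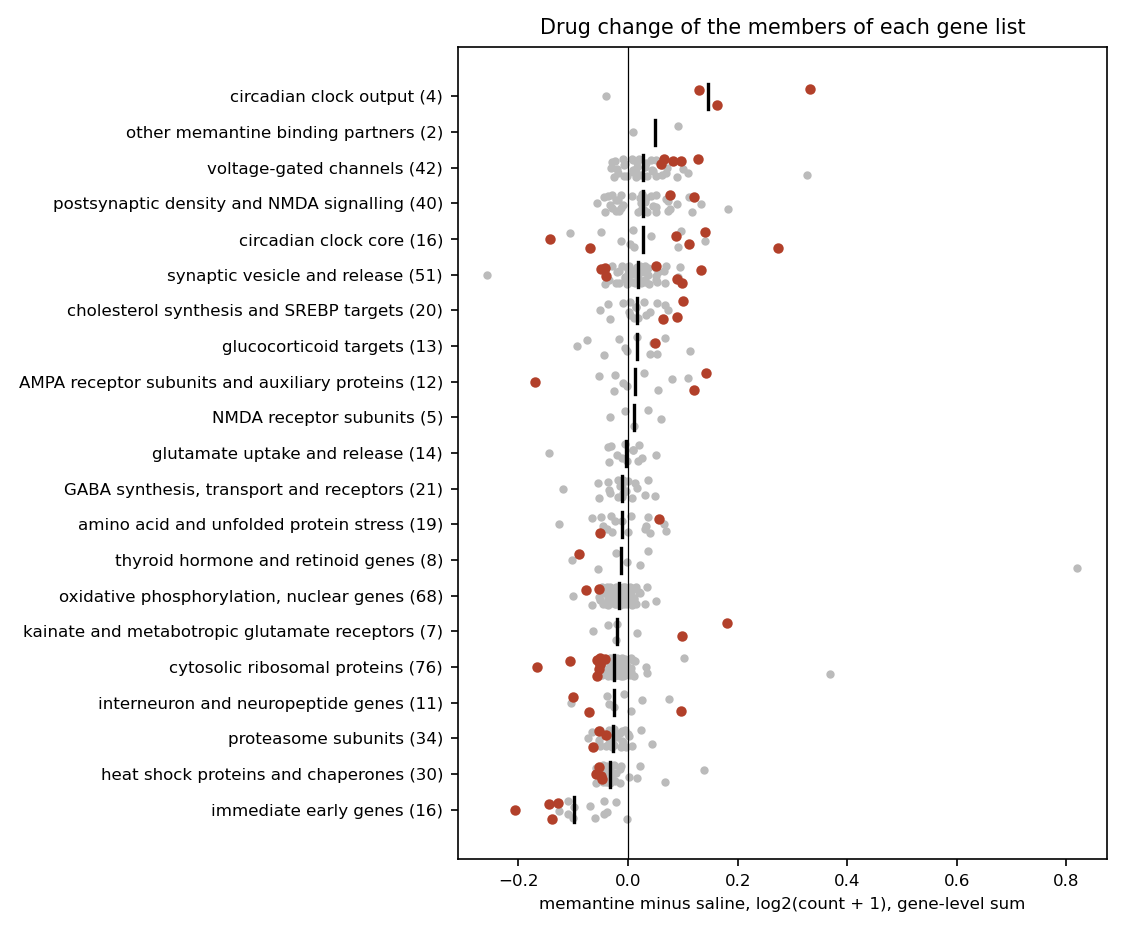
Log2 difference between memantine and saline (x axis, log2 of count + 1, gene-level sums) for every listed member of each gene list (y axis, number of members in parentheses); red points have an unadjusted p under 0.05, and black bars are list medians. Of the lists shown, which leave out the marker lists, the clock output list lies furthest to the right (median 0.15). The immediate early list lies furthest to the left (median -0.10).

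Most genes of protein synthesis and turnover lay slightly below 0, and few passed. Of 76 cytosolic ribosomal protein genes, 65 were below 0 and 9 passed, all lower, with a median of -0.03. These 9 were 11.8% of the list, against 8.94% of all gene-level sums. Ribosomal protein genes have many pseudogene copies that can share their reads. After Rps16 the largest fall was that of Rpl39, -0.11 ± 0.03 (p = 0.0015). Of 34 proteasome subunits 29 were below 0 and 3 passed, all lower (Psma1, Psmb1 and Psmc1), and this 8.82% did not stand apart from the 8.94% of all sums. Of 30 chaperones 25 were below 0 and 4 (13.3%) passed, all lower, of which Cct4, Cct7 and Tcp1 are subunits of the chaperonin TRiC and Dnaja2 is an HSP70 co-chaperone. Of 68 nuclear oxidative phosphorylation genes, 52 were below 0 and 2 passed (Ndufb6 and Uqcrfs1, both lower), a share of 2.94% and so smaller than that of all sums. The direction of this list, and the counts of the others, depended on the covariates given below.

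Voltage-gated channel genes lay on the other side, with 31 of 42 above 0, a median of 0.03 and 5 that passed, all higher, or 11.9% against 8.94% of all sums. They included Scn8a, a sodium channel of the axon initial segment, at 0.07 ± 0.02 (p = 0.00579), Kcna1, an axonal potassium channel, at 0.06 ± 0.02, Cacna1a, the P/Q-type calcium channel, at 0.13 ± 0.06, and Cacna1i, a T-type channel, at 0.08 ± 0.04.

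These lists also differ in transcript length and base composition, and both moved slightly with the drug. The median transcript length was 785 bases for ribosomal proteins and 7165 for voltage-gated channels, against 4008 for all transcripts. The median log2 change in count was -0.02 in the shortest 20% of transcripts and 0.01 in the longest 20%, and -0.01 in the 20% poorest in GC and 0.02 in the 20% richest. A length index, the median deviation of the longest 20% minus that of the shortest 20% in each library, was on average 0.02 higher under memantine (permutation p = 0.0774, adjusted over 15 library measures 0.914), and a GC index 0.03 higher (p = 0.365). With both indices as covariates, 196 of 5875 gene-level sums were higher and 223 lower at the unadjusted threshold. In that fit oxidative phosphorylation genes turned, with 49 of 68 above 0, 4 higher and none lower. The ribosomal list had 37 genes above 0 and 39 below, 2 higher and 2 lower, and a median of 0.00. The proteasome list had 1 higher and none lower, and the chaperones 1 lower. The voltage-gated channels had 1 higher. Synaptic vesicle genes had none higher and 4 lower, with 29 of 51 below 0, and postsynaptic density genes 1 higher, with 24 of 40 below 0 where 26 had been above. The core clock list had 2 higher and 2 lower, with 7 of 16 above 0. The immediate early list had 7 lower and a median of -0.13. With the same covariates Dbp stayed at an adjusted p of 0.00493 and Tef at 0.00878. The call of 4933431E20Rik was lost (adjusted p = 0.184), and Nr1d2, which had not passed adjustment, was at 0.00493. This alternative was chosen after the values were seen.

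The largest changes on the transcript scale were of another kind. Among the 40 transcripts with the largest change in log2 count at an unadjusted p under 0.05, 27, or 67.5%, belonged to genes with more than 1 listed transcript, against 24.5% of the table. In those named here, one transcript was higher and another lower while the change of the sum did not pass. R3hdm2, encoding an R3H-domain protein, is the example with the smallest p. Its transcript NM_001168293 had 775 to 1373 counts in saline sham, 1124 to 2003 in memantine sham, 706 to 1544 in saline HF-HI and 1043 to 1879 in memantine HF-HI, a rise of 32.6% (p = 7.71e-05, adjusted p = 0.176). Its transcript NM_001168292 was at -0.16 in log2 counts (p = 0.0706), and the gene-level sum was at 0.06 ± 0.05 (p = 0.293).

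Mapre2, encoding the microtubule end-binding protein EB2, showed the exchange in both transcripts. NM_153058 rose by 9.7% (p = 0.000894), NM_001162942 fell by 24.3% (p = 0.00139), and the sum was at 0.03 ± 0.02 (p = 0.168).

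Of the 6 transcripts with the largest rises and falls, those of Tcf20, Cdc42bpa, Dgkz, Tent4b and Galnt1 had libraries in separate modes. The limits given here were set after the values were seen. NM_013836 of Tcf20, a transcriptional coregulator, had 1151 to 2115 counts in saline sham and 1423 to 2885 in saline HF-HI, but under 10 counts in 3 of 10 memantine sham and 2 of 10 memantine HF-HI libraries (p = 0.00309). The other Tcf20 transcript rose by 9.4% (p = 0.00323), and the sum was 9586 ± 351, 9734 ± 218, 9605 ± 261 and 9694 ± 316 in saline sham, memantine sham, saline HF-HI and memantine HF-HI (SD), a change of 0.02 (p = 0.205).

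**Figure D5:**
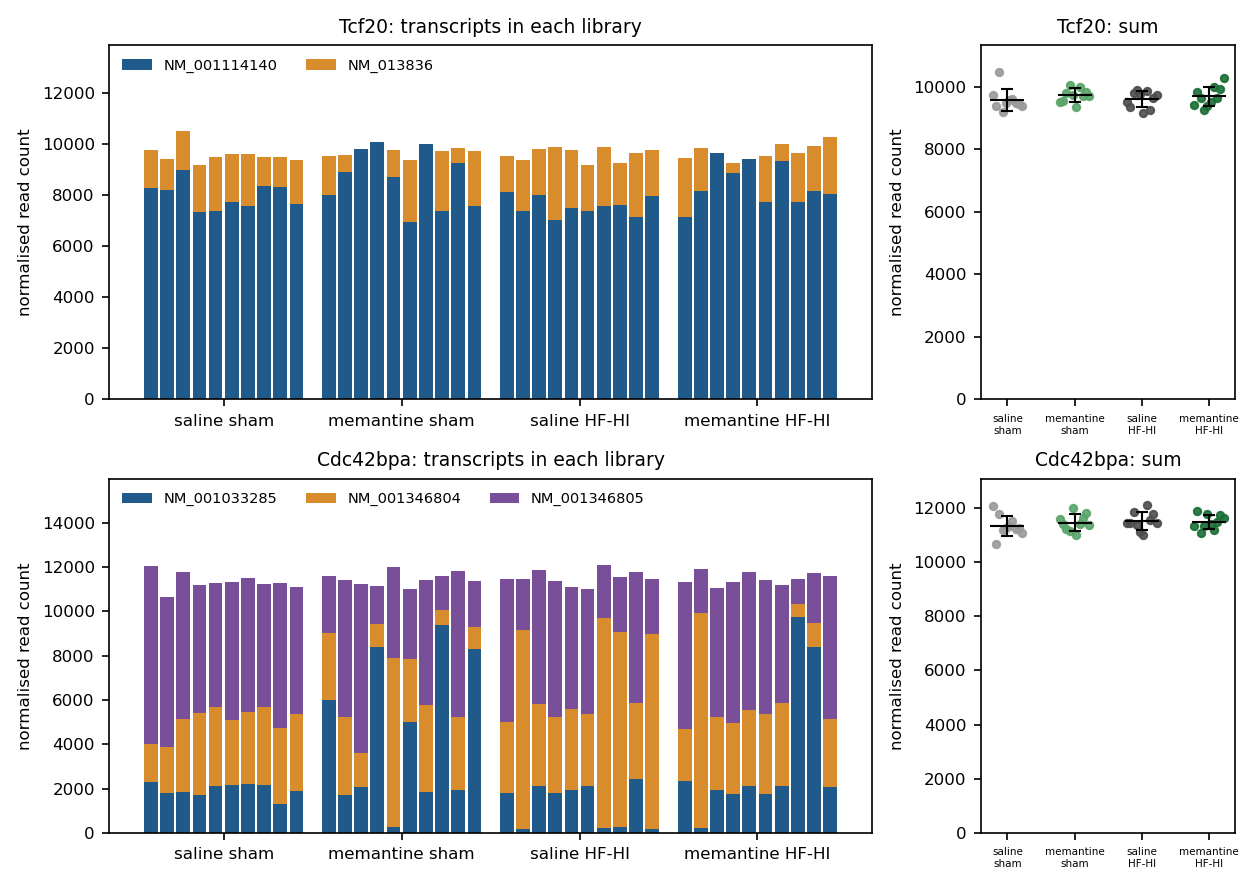
Normalised read counts (y axes, from 0) of the listed transcripts of Tcf20 and Cdc42bpa, stacked for each of the 40 libraries by group (left), and of their gene-level sums with mean ± SD of 10 libraries (right). The share of each transcript jumps between libraries, while the sums average 9586 to 9734 and 11336 to 11514 in the 4 groups.

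Cdc42bpa, encoding the kinase MRCK alpha, had 3 transcripts. NM_001033285 stayed between 1303 and 2291 counts in saline sham, exceeded 4000 in 5 of 10 memantine sham and 2 of 10 memantine HF-HI libraries, and lay under 1000 in 4 of 10 saline HF-HI, 1 of 10 memantine sham and 1 of 10 memantine HF-HI libraries (p = 0.00648). The sum was 11336 ± 377 in saline sham, 11456 ± 306 in memantine sham, 11514 ± 329 in saline HF-HI and 11475 ± 273.6 in memantine HF-HI (p = 0.687). Dgkz, a diacylglycerol kinase, and Kif3a, a kinesin-2 motor, had one rising and one falling transcript each and sums at 0.01 ± 0.05 and 0.02 ± 0.03 (p = 0.824 and 0.532). The rise of Dgkz NM_001166597 lay in part of the libraries, and 9 of 20 memantine libraries were above the saline mean. Its sham medians were 166.5 under saline and 165.4 under memantine, with highest counts of 542.6 and 3910. In HF-HI the medians were 217.6 and 262.7, with highest counts of 3958 and 3922.

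Tent4b, a non-canonical poly(A) polymerase, and Galnt1, which starts O-glycosylation, had 1 listed transcript each and no sum to set beside it. Tent4b was under 10 counts in 4 of 10 memantine sham and 2 of 10 memantine HF-HI libraries and in no saline library (p = 0.00181), and Galnt1 in 1 and 3 memantine libraries and no saline library (p = 0.0397). Such jumps were not limited to memantine libraries. Of 1674 transcripts in genes with more than 1, those whose share of the gene lay over 0.2 from the median library numbered 91 to 128 per library in saline sham, 97 to 157 in memantine sham, 91 to 151 in saline HF-HI and 99 to 128 in memantine HF-HI (permutation p = 0.192). What part the assignment of reads among similar transcripts had in these modes was not tested.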

How the data were processed

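Cortical RNA of 40 mice was sequenced by the authors as stranded, ribosomal-depleted libraries. Reads were counted per RefSeq transcript (mm10) with STAR and eXpress per the methods, whereas the labels name HISAT2 and StringTie. The authors deposited DESeq2 variance-stabilised log2 values for 6831 abundant transcripts. The transformation was inverted with its floor of 10.36, which gave whole reads for 100% of counts under 5000 (92.4% of values), within 0.1 read. Transcripts were summed by symbol (99.62% matched). The drug was tested with limma 3.58.1 in R 4.3.3 (drug + impact, trended prior), on the deposited values for transcripts and on log2(sum + 1) for genes, two-sided, at an unadjusted p under 0.05, the criterion of the study, and an adjusted p under 0.1. Lengths and GC came from GENCODE vM21 for 98.1% of transcripts. At the lowest mean count the counting error alone is 4.27% of the value. Permutations shuffled the drug within sham and within HF-HI, 100000 times. Library measures were adjusted over 15.

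The text names the 10 rising and 10 falling transcripts and the 8 rising and 8 falling sums with the smallest p, the 3 largest rises and falls among passing transcripts, the NMDA receptor subunits, and passing members of gene lists. Y-linked genes and Xist were left out. Some passing members of gene lists are not reported here. Members and lists were chosen with earlier results of these data known. The labels give samples, not batches, and p-values measure the spread between libraries. Alternatives covered scaling, weights, covariates, filters, thresholds and left-out libraries. The procedure was tested on simulated data.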

Additional observations from a re-analysis of the deposited data

Results flagged for a closer look

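For 5 of the 28 named features examined for flags, the drug effect differed between impact levels at an unadjusted p under 0.05. None did after adjustment across all features (adjusted p = 0.999 for each). The drug effect in HF-HI minus that in sham was -0.115 for Dbp (p = 0.00563), -0.084 for Nr1d2 (p = 0.0124), -0.071 for Rps16 and 0.061 for Arntl (p = 0.0362 for both) on the deposited scale, and -0.134 for the Tef sum (p = 0.0246) on the log2 count scale.

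Single libraries stood apart from the other 9 of their group for some named features. The gap to the nearest library, as a share of the range of the group on a log2 scale, was compared with Dixon's 95% critical value for 10 samples, which flags about 1 in 20 groups by chance. In all, 112 groups were examined, so several flags can arise by chance alone. For Per2, saline HF-HI replicate 1 (862 counts, the others 1327 to 1578) had a share of 0.688 and memantine HF-HI replicate 1 (1034, the others 1449 to 1711) one of 0.647. For Dbp, saline HF-HI replicate 8 (818 counts, the others 1057 to 1298) had 0.532. For the Arhgap32 sum, memantine HF-HI replicate 1 (12390, the others 14110 to 15940) had 0.515.

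The remaining flags fell on transcripts of the exchange kind. For Dgkz NM_001166597 they were 0.468 for saline sham replicate 7 (543 counts, the others 71.1 to 264) and 0.722 for saline HF-HI replicate 4 (3958, the others 83.3 to 517). For Kif3a NM_008443 they were 0.501 for saline HF-HI replicate 2 (15.4 counts, the others 293 to 950) and 0.53 for memantine HF-HI replicate 10 (438, the others 684 to 953). For Galnt1 the flag was 0.67 for memantine sham replicate 5, listed at 0 counts with the others between 521 and 1206.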

How the results depend on the processing

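Of 6831 transcripts, 549 had an unadjusted p under 0.05 and 1 an adjusted p under 0.1; of 5875 gene-level sums, 525 and 3. Within the HF-HI libraries alone these became 293 and 0 transcripts and 236 and 0 sums, and within sham alone 2 transcripts passed adjustment. A mean count of at least 1000, which tests fewer features, gave 361 and 2 transcripts. Unadjusted thresholds of 0.01 gave 137 transcripts and 132 sums. After adjustment, 38 transcripts passed with the first residual component as a covariate, and 3 with the striatal marker mean, or with the length and GC indices added after seeing the data; the cause was not tested. Leaving out 1 library gave 457 to 696 transcripts at the unadjusted threshold and 1 to 5 after adjustment, and 431 to 670 and 2 to 6 sums. The count of 5 was without saline HF-HI replicate 3 and that of 6 without memantine HF-HI replicate 1. Under the settings named neither here nor in the next paragraph, these counts stayed within 1.5 times. Among the called, the share that was higher was 49.0% of transcripts, 43.8% after median centring and 44.5% after quantile normalisation.

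With the replicate number as a block (replicate block), 549 transcripts passed at the unadjusted threshold and 3 after adjustment. The Per2 sum was at 0.27 with an adjusted p of 0.063 in that fit. Only 1 of 20 same-numbered saline and memantine pairs correlated above 0.1 in their deviations (range -0.11 to 0.16). Correlations of single pairs cannot show whether the numbers mark sets of libraries, and this was not tested.

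No named feature changed direction under any setting. In HF-HI alone 17 of 42, and in sham alone 7 of 42, no longer passed. The Dgkz and Galnt1 transcripts no longer passed in the fit without 1 library that weighed most (p = 0.0503 and 0.0765). Neither they nor Tent4b passed with voom weights, added after seeing the data. Only abundant transcripts were tested, and a change of 1 in log2 count appears as 0.308 on the deposited scale at the lowest mean count, against 0.81 at a count of 10000.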

Other observations

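Some members of gene lists other than the synaptic, clock and proteostasis ones passed at an unadjusted p under 0.05, and none after adjustment. Gng7, a G protein gamma subunit most abundant in the striatum, was 22.5% higher under memantine (0.29 ± 0.09, p = 0.00292, adjusted p = 0.403). Its medians were 2067 and 2254 counts in saline and memantine sham and 1611 and 2136 in saline and memantine HF-HI, with overlapping groups. Pooled over impact, it was the only 1 of 18 striatal markers to pass (5.56%, against 8.94% of all gene-level sums). In a fit of the HF-HI libraries alone 5 of the 18 were higher, against 109 of 5875 sums. In the sham libraries alone 0 were higher and 1 lower. The within-group clock counts above came from contrasts that use the spread of all 40 libraries. In those contrasts 2 of the 18 passed within HF-HI, against 216 of 5875 sums, and 1 within sham, against 464. The median change of those 18 was -0.03 within sham and 0.13 within HF-HI, and their part in the Gng7 value was not tested. Flt1, an endothelial receptor for VEGF, rose by 0.08 ± 0.04 (p = 0.0445), and Gja1, the astrocyte connexin 43, fell by 0.07 (p = 0.0271), each the only member of its marker list to pass. None of 6 microglial and 13 oligodendrocyte markers passed. Among 11 listed interneuron and neuropeptide genes, 3 passed (27.3%, against 8.94% of all gene-level sums). Lamp5 and Calb1 fell by 0.10 and 0.07 (p = 0.0235 and 0.0412). Kcnc1, a fast potassium channel, rose by 0.10 ± 0.05 (p = 0.0462) and is also among the voltage-gated channels that passed. Among cellular stress genes, the transcription factor Atf4 fell by 0.05 (p = 0.0436) and the kinase Eif2ak3 rose by 0.06 ± 0.03 (p = 0.0312). Dio2, which activates thyroid hormone, fell by 0.09 (p = 0.0474), and Nr3c2, the mineralocorticoid receptor, rose by 0.05 ± 0.02 (p = 0.0317). Of the hippocampal and cortical layer lists, 1 of 2 and 2 of 16 members were lower. Neither of the 2 listed choroid plexus genes, nor any of 4 oligodendrocyte precursor genes, 5 thalamic genes or 2 other binding partners of memantine, passed.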
